A study of Mus musculus with 10 samples.

Results

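The library labelled FoxO3 siRNA (library 9) was set directly against the library labelled FoxO1 siRNA (library 8), both made from mouse renal proximal tubule cells that received hydrogen peroxide and Wnt3a. Each gene was described by a log2 ratio, log2 of (FPKM in library 9 + 1) over (FPKM in library 8 + 1), where FPKM is fragments per kilobase of transcript, scaled to the library's size. A gene was measured where it reached 1 FPKM in at least 1 of these libraries and was listed at exactly 0 in neither. This left 11954 of 46509 genes, from 2 of the 10 libraries of the series. At the edge of that rule, RP24-406N3.3 (1.00 FPKM at its highest) and Marveld3 (1.00) were just inside, and RP23-200C3.7 (0.998) and Gm9747 (0.998) were just outside.

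The study concerns transcription that depends on beta-catenin and FoxO factors under oxidative stress. It holds 10 RNA-seq libraries with a single library for every group, so differences could not be weighed against replicate error and no p-value is given. The cells are a conditionally immortalized proximal tubule line, from mice of mixed strain that carry floxed alleles of the type II TGF-beta receptor and were crossed with the Immorto-mouse, whose temperature-sensitive large T antigen is driven by an interferon-inducible promoter. The 4 groups in use here were transfected with siRNA at the lower growth temperature and then moved to the higher one without interferon gamma. They share 100 uM H2O2 and 20 ng/mL Wnt3a and are labelled scramble siRNA (library 7), FoxO1 siRNA (library 8), FoxO3 siRNA (library 9) and both siRNAs (library 10). Libraries 7 and 10 are given below as levels only. No source used here says whether the floxed alleles had been recombined, or whether the line is 1 clone.

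FoxO proteins are forkhead transcription factors that insulin and Akt signalling hold in the cytoplasm and that oxidative stress drives into the nucleus. There they bind beta-catenin, which Wnt ligands otherwise direct to TCF factors. Interferons act through a separate route, in which a complex that includes IRF9 binds response elements before antiviral genes. Amino acid shortage and several other stresses act through ATF4, a factor whose translation is raised when general translation falls.

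The targeted genes went with the label of library 8 and not with that of library 9. Foxo1 (chr3:52268336-52353221, plus strand, GENCODE M21 on GRCm38) was at 3.68 FPKM in library 8, 8.55 in library 9, 7.95 in library 7 and 4.67 in library 10. It was low in both libraries whose labels name FoxO1 siRNA, and its log2 ratio was 1.03. Foxo3 (chr10:42181841-42276755, minus strand) was at 17.8 FPKM in library 8, 19.9 in library 9, 19.7 in library 7 and 17.4 in library 10. The 4 values lie within a narrow range, and Foxo3 was not lower in the library labelled FoxO3 siRNA (log2 ratio 0.16). In library 10, whose label also names FoxO3 siRNA, it was close to its level in library 8, whose label does not. Foxo4, another family member, was at 4.74 FPKM in library 8, 5.24 in library 9, 4.96 in library 7 and 4.35 in library 10, and Foxo6 stayed under 1 FPKM in all 4. Library 9 is therefore called the FoxO3-labelled library, and every direction below rests on its label. Library 10 is likewise given by its label. The mRNA levels say nothing of the proteins, which were not measured here.

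The libraries were alike in most genes. Summed FPKM, which is scaled to library size and does not measure depth, came to 510522 in library 8 and 507398 in library 9. The spacing of low values put the depth of library 9 at about 1.05 times that of library 8. At that best-fitting value, 47.8% of 2757 genes under 0.3 FPKM met the spacing, against 15% of evenly spread values. The median log2 ratio was -0.01 over all measured genes, and over the 9403 genes at 5 FPKM or more the robust spread of the log2 ratio was 0.178, with the 5th to 95th percentiles from -0.36 to 0.35. Of the 20 proximal tubule markers examined, 7 were measured, among them Pax8 (104 and 101 FPKM in libraries 8 and 9) and Lrp2 (12.5 and 15.4 FPKM), while the defining transporters Slc34a1 and Slc22a6 and the regulator Hnf4a were at or near 0. The 7 leukocyte markers found summed to 7.76 FPKM in library 8 and 7.64 in library 9, most of it from Cd68 (5.54 and 5.28 FPKM) and Csf1r (1.69 and 2.22 FPKM), with Ptprc, Cd3e and Adgre1 at or near 0. The 9 fibroblast markers summed to 6.80 and 8.03 FPKM, most of it from Fbln1 (6.25 and 7.47 FPKM). The 5 podocyte markers summed to 25.7 in each, from Synpo (21.6 and 21.1 FPKM) and Wt1 (3.99 and 4.26 FPKM). Of 7 epithelial markers 3 were measured, Tjp1 (40.5 and 41.9 FPKM), Krt18 (31.1 and 25.3 FPKM) and Krt8 (20.5 and 14.6 FPKM), while Cdh1 and Epcam were near 0. The part of these markers in the results was not tested. In bulk RNA, fewer cells of a type and less RNA per cell cannot be told apart.

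**Figure D1:**
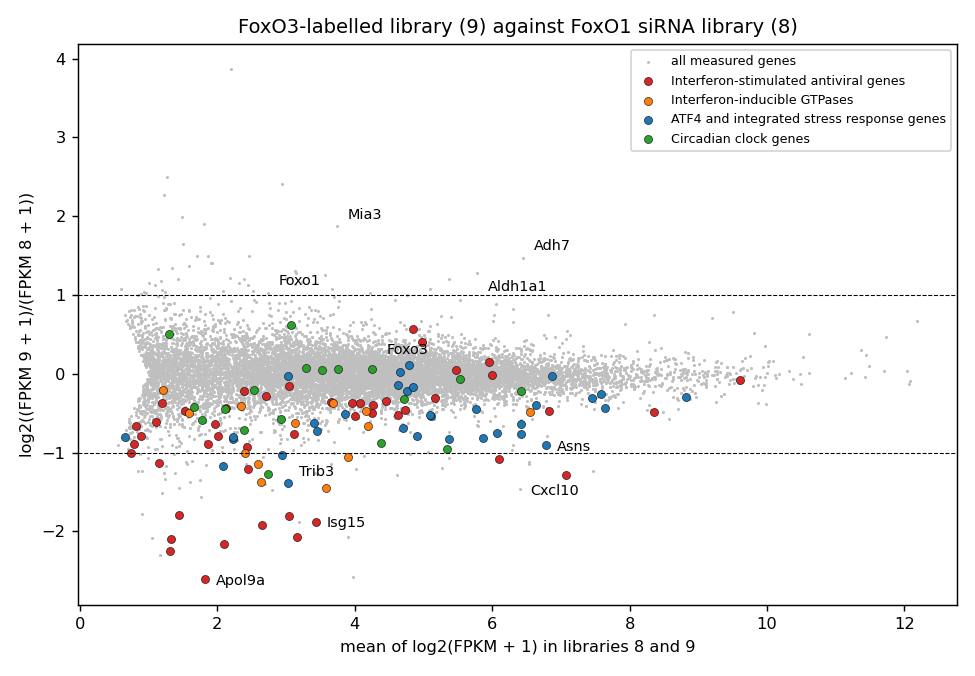
Log2 ratio of the FoxO3-labelled library to the FoxO1 siRNA library (y axis) against the mean log2(FPKM + 1) of both (x axis), 1 grey point for each of 11954 measured genes, with 4 gene lists in colour and dashed lines at a log2 ratio of 1 and -1. Antiviral interferon-stimulated genes reach -2.61, the GTPases reach -1.45 and the stress response genes reach -1.39. The 5th and 95th percentiles of all genes at 5 FPKM or more are -0.36 and 0.35.

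Few genes differed by 2-fold. Of the measured genes, 47 were higher in library 9 by a log2 ratio of 1 or more (0.393%) and 67 were lower (0.56%), 0.954% in all. At the smaller size of 0.58, about 1.49-fold, used below for members of gene lists, 246 were higher (2.06%) and 281 were lower (2.35%), 4.41% in all. Many of the 2-fold genes were of uncertain value: 45 of 114 had symbols of small RNAs, predicted genes, histones or other classes left out of the naming rule, 17 had a status other than OK in a deposited table, and 47 stayed below 5 FPKM. Over the 10797 genes left once the first of these groups and rows with several symbols or another status were set aside, 16 were higher and 46 were lower by 2-fold. The counts depend on the pseudocount: with 5 FPKM in place of 1, 6 genes were higher and 18 lower by 2-fold.

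Many genes that interferon induces were among the lower ones. Of 62 antiviral interferon-stimulated genes listed, 47 were measured. In library 9, 23 of these (48.9%) were lower by 0.58 or more, against 2.35% of all measured genes, 14 were lower by 2-fold, against 0.56%, and 0 were higher. With at least 5 FPKM required in a library, 11 antiviral genes were lower by 0.58, as were 139 of all 9403 genes kept. How many antiviral genes that filter kept is not given here, so the 11 have no share. The list's median log2 ratio was -0.53, against -0.01 over all measured genes. For 39 of the 47, library 8 held the highest level of the 4 libraries, against 26.2% of all measured genes, and for 39 library 9 held the lowest, against 32.7%. A list with most ratios below 0 favours both counts.

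The lowest ratio of any named gene was that of Apol9a, an interferon-inducible apolipoprotein L gene, at 7.73 FPKM in library 8, 0.431 in library 9, 2.79 in library 7 and 2.48 in library 10. Its log2 ratio was -2.61, and the FoxO3-labelled library lay below the other three. Reads of Apol9a and its near-identical neighbour Apol9b (4.19 and 0.21 FPKM in libraries 8 and 9) could have been shared between them. Oasl2, an oligoadenylate synthetase-like antiviral gene, was at 7.99 FPKM in library 8, 1.01 in library 9, 3.47 in library 7 and 2.81 in library 10 (log2 ratio -2.16). Xaf1, a pro-apoptotic interferon-stimulated gene, was at 17.3 FPKM in library 8, 3.34 in library 9, 8.54 in library 7 and 7.55 in library 10 (log2 ratio -2.08). In both genes libraries 7 and 10 lay close together, midway between the other libraries. Rtp4, a receptor transporter gene that interferon induces, was at 11.2 FPKM in library 8, 2.23 in library 9, 5.82 in library 7 and 4.44 in library 10 (log2 ratio -1.92), and 13.9% of its exonic bases lie in exons of a predicted gene on the same strand.

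Isg15 codes for a ubiquitin-like protein that is conjugated to other proteins during antiviral responses. It was at 19.7 FPKM in library 8, 4.63 in library 9, 11.8 in library 7 and 7.15 in library 10, a log2 ratio of -1.88. Ifit1, whose product binds foreign RNA lacking cap methylation, was at 14.4 FPKM in library 8, 3.42 in library 9, 9.54 in library 7 and 8.24 in library 10 (log2 ratio -1.81). The same order of the 4 libraries was found for both. Ifi27, a more abundant member of the list, was at 209 FPKM in library 8, 85.2 in library 9, 158 in library 7 and 131 in library 10 (log2 ratio -1.29). Bst2, which codes for the virus-tethering protein tetherin, was at 99.1 FPKM in library 8, 46.1 in library 9, 75.1 in library 7 and 48.8 in library 10 (log2 ratio -1.09), and here the library labelled with both siRNAs stood close to library 9. Ifi44 (4.43 and 0.14 FPKM in libraries 8 and 9) and Rsad2 (4.05 and 0.455 FPKM), which codes for viperin, also differed by more than 2-fold but from low levels. Usp18, which removes Isg15 from its targets and dampens interferon receptor signalling, was at 7.3 and 2.59 FPKM.

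Not every interferon-stimulated gene was lower. Ifit3 was at 26.5 FPKM in library 8, 35.4 in library 9, 24.7 in library 7 and 25.2 in library 10 (log2 ratio 0.40), and its close copy Ifit3b was at 22.6 FPKM in library 8, 34.1 in library 9, 22.9 in library 7 and 20.4 in library 10 (0.57). For this pair the FoxO3-labelled library was the highest of the 4, although neither ratio reached 0.58, and their reads may have been divided between them. Ifit2 (0.15) and Pml (0.05) also had ratios above 0. The other 43 of the 47 measured members had ratios below 0 (91.5%, against 52.4% of all measured genes).

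**Figure D2:**
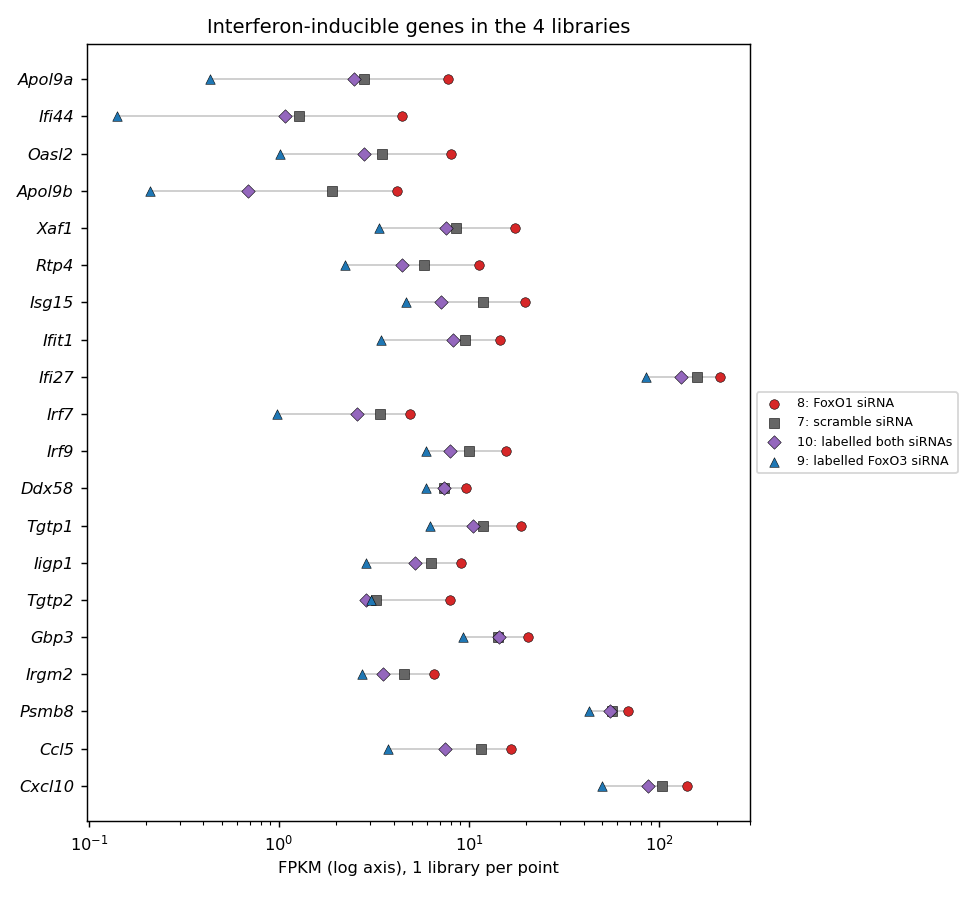
FPKM (log x axis) of 20 interferon-inducible genes in the 4 siRNA libraries given H2O2 and Wnt3a, 1 point for each library. Library 8 (FoxO1 siRNA) is the rightmost point for each gene, and library 9 (labelled FoxO3 siRNA) is the leftmost for all but Tgtp2, where library 10 is at 2.88 FPKM and library 9 at 3.03.

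The interferon-inducible GTPases, which attack the vacuoles of intracellular pathogens, lay on the same side. Of 17 listed, 13 were measured, 7 (53.8%) were lower by 0.58 or more, against 2.35% of all measured genes, and all 13 had ratios below 0, against 52.4%, with a median of -0.63. Tgtp1 was at 18.8 FPKM in library 8, 6.22 in library 9, 11.8 in library 7 and 10.5 in library 10 (log2 ratio -1.45), and its reads may have been shared with Tgtp2 (7.92 and 3.03 FPKM in libraries 8 and 9). Iigp1 was at 9.01 FPKM in library 8, 2.87 in library 9, 6.27 in library 7 and 5.19 in library 10 (-1.37). The guanylate-binding protein gene Gbp3 was at 20.5 FPKM in library 8, 9.32 in library 9, 14.2 in library 7 and 14.3 in library 10 (-1.06). For 12 of the 13 the highest level was in library 8, against 26.2% of all measured genes, a count that ratios all below 0 favour. Over the 5 members that share neither more than 10% of their exonic bases with another gene nor a deposited locus with another member, 2 were lower by 0.58 or more.

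Among genes of interferon signalling, the receptors were close between the libraries and 3 other members were lower. Ifnb1, the gene of the ligand interferon beta, was listed at 0 in all 4 libraries. The receptor genes Ifnar1 (62 and 66.3 FPKM in libraries 8 and 9, log2 ratio 0.10), Ifnar2 (68.5 and 67.7 FPKM, -0.02) and Ifngr1 (55.1 and 52.7 FPKM, -0.07) differed by less than the robust spread of 0.178. Of 26 measured genes for interferon signalling and nucleic acid sensing, 3 (11.5%) were lower by 0.58 or more, against 2.35% of all measured genes, and 0 were higher, with a median of -0.06. Those 3 are themselves induced by interferon. Irf7, a factor that drives interferon gene transcription, was at 4.87 FPKM in library 8, 0.978 in library 9, 3.4 in library 7 and 2.55 in library 10 (log2 ratio -1.57). Irf9, a DNA-binding part of the complex that interferon receptors activate, was at 15.7 FPKM in library 8, 5.93 in library 9, 10.0 in library 7 and 7.95 in library 10 (-1.27). Ddx58, which codes for the viral RNA sensor RIG-I, was at 9.58 and 5.93 FPKM in libraries 8 and 9 (-0.61).

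Antigen presentation showed smaller differences in the same direction. Of 20 measured genes of MHC class I and antigen processing, 19 had ratios below 0 (95%, against 52.4% of all measured genes), with a median of -0.19. Past 0.58 was 1 (5%, against 2.35%), the immunoproteasome gene Psmb8 (68.5 FPKM in library 8, 42.9 in library 9, 56.2 in library 7 and 54.7 in library 10, log2 ratio -0.66). Of its exonic bases, 14.7% lie opposite a predicted gene, and over the 11 members that share few exonic bases and no locus 0 passed that size. Cd74, the invariant chain of MHC class II and among the 15 lowest genes, was at 10.6 FPKM in library 8, 3.18 in library 9, 7.79 in library 7 and 6.53 in library 10 (-1.47).

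Chemokine genes went both ways. Of 14 measured, 4 (28.6%) were lower by 0.58 or more, against 2.35% of all measured genes, and 2 (14.3%) were higher, against 2.06%. Setting aside Cxcl10, Cxcl11 and Cxcl16, which share a locus or exons, left 2 lower and 2 higher. Ccl5, which attracts T cells and monocytes, was at 16.6 FPKM in library 8, 3.75 in library 9, 11.6 in library 7 and 7.49 in library 10 (log2 ratio -1.89), and the interferon-inducible Cxcl10 was at 139 FPKM in library 8, 49.7 in library 9, 103 in library 7 and 87.6 in library 10 (-1.47). In both, library 8 was highest and library 9 lowest of the 4. Ccl17, a ligand of CCR4, was at 107 FPKM in library 8, 56.9 in library 9, 129 in library 7 and 96.4 in library 10 (-0.90). The higher members were the neutrophil chemokine Cxcl5, at 253 FPKM in library 8, 425 in library 9, 256 in library 7 and 275 in library 10 (0.75), and the monocyte chemokine Ccl7, at 28.6 FPKM in library 8, 48 in library 9, 35.9 in library 7 and 32.8 in library 10 (0.73).

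The promoters of lower interferon genes are shown because many share the letters of an interferon response element. The motif, GAAA followed after 2 bases by GAAA, was searched on both strands in the 250 bases before each gene's start in the RefSeq table of GRCm38.p6, where 8691 of the measured genes were found. It was present in 3.46% of 27025 promoters and 3.01% of those of measured genes. Among antiviral genes lower by 0.58 it was in 9 of 15 with a promoter (60%), and among the other measured antiviral genes in 6 of 20 (30%). Holders in the latter group included Ifit3 and Ifit3b, whose ratios were above 0. Among the lower GTPases it was in 5 of 5. Of the GTPases not lower by 0.58 that have a promoter, Gbp7, Irgm1 and Gbp2 held it and Ifi47 did not, so the motif did not set the lower GTPases apart. The sequences below run 5′ to 3′ on the gene's strand up to the base before its start, with capitals at each match, and overlapping matches run together. They are Isg15 at chr4:156200819-156200948 (minus strand), Ifit1 at chr19:34640759-34640888 (plus strand), Apol9a at chr15:77411081-77411210 (minus strand), Tgtp1 at chr11:48992247-48992376 (minus strand) and Cxcl10 at chr5:92348890-92349139 (minus strand).
Isg15: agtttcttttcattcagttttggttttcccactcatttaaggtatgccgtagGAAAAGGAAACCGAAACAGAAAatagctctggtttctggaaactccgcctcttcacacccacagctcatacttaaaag
Ifit1: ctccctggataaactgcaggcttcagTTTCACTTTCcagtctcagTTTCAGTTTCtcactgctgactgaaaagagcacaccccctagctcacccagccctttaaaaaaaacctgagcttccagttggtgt
Apol9a: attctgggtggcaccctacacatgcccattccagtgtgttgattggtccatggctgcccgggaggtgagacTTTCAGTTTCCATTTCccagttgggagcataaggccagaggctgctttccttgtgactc
Tgtp1: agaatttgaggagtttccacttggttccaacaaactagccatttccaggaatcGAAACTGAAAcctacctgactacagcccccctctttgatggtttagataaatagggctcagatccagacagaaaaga
Cxcl10: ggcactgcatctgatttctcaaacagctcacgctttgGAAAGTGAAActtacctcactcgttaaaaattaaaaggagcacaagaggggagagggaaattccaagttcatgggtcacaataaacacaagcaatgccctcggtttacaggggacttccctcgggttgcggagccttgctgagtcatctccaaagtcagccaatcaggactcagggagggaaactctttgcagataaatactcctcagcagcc
In Isg15 the 3 matches form 1 run that begins 78 bases before the start, in Ifit1 the 2 matches are apart, and in Cxcl10 the match begins 213 bases before the start. A match describes letters and is not evidence of binding.

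A second group of lower genes was that of ATF4 and the integrated stress response, which supplies amino acids and one-carbon units. Of 33 listed, 32 were measured, and 16 (50%) were lower in library 9 by 0.58 or more, against 2.35% of all measured genes. By 2-fold 3 were lower (9.38%, against 0.56%), and 0 were higher by 0.58, against 2.06%. The list's median was -0.58. Of the 32, 30 had ratios below 0 (93.8%, against 52.4% of all measured genes). Library 9 held the lowest of the 4 levels for 28, against 32.7% of all measured genes, while library 8 held the highest for 18, against 26.2%. As in the antiviral list, ratios mostly below 0 favour both counts. For 15 of the 16 lower genes library 7 lay nearer to library 8 than to library 9, and the same count held for library 10. Over all 281 genes lower by 0.58 these shares were 66.2% for library 7 and 54.8% for library 10. For the 23 lower antiviral genes they were 60.9% and 17.4%.

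Trib3, a pseudokinase that ATF4 induces and that restrains it, was at 12.2 FPKM in library 8, 4.03 in library 9, 11.1 in library 7 and 10.9 in library 10 (log2 ratio -1.39). Chac1, which degrades glutathione, was at 10.0 FPKM in library 8, 4.38 in library 9, 8.98 in library 7 and 8.28 in library 10 (-1.04). The FoxO3-labelled library stood apart in both, and the other three lay together. Asns, which codes for asparagine synthetase, was at 150.5 FPKM in library 8, 79.6 in library 9, 131 in library 7 and 131 in library 10 (-0.91). Cth, which makes cysteine from cystathionine and is outside the list but among the 15 lowest genes, was at 37.4 FPKM in library 8, 14.8 in library 9, 31.5 in library 7 and 27.8 in library 10 (-1.29). Slc7a11, the cystine importer, was at 5.16 FPKM in library 8, 2.53 in library 9, 4.74 in library 7 and 4.35 in library 10 (-0.80). Mitochondrial one-carbon enzymes were on the same side: Aldh1l2 was at 5.35 FPKM in library 8, 1.83 in library 9, 6.23 in library 7 and 4.66 in library 10 (-1.17), Shmt2 had a ratio of -0.77 and Mthfd2 had -0.75. Of the exonic bases of Aldh1l2, 14.1% lie opposite another gene, and the sources used here do not say whether the counting used strand.

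Among the transcription factors of this response, the ratios of 4 ran from -0.83 to -0.02, and that of Cebpg was 0.02. Atf4 itself was at 232 FPKM in library 8, 172 in library 9, 237 in library 7 and 226 in library 10 (log2 ratio -0.43), Ddit3, which codes for CHOP, had a ratio of -0.15, and Atf3 had -0.02. Atf5, a related factor, was at 54.4 FPKM in library 8, 30.2 in library 9, 53.1 in library 7 and 47.2 in library 10 (-0.83). The chaperones of the unfolded protein response, which the ATF6 and XBP1 branches induce, gave no member past 0.58 among 18 measured. Of all measured genes 4.41% passed it, so 0 in a list this small is near that share. The list's median was 0.06. Hspa5, the chaperone BiP, was at 236 and 248 FPKM in libraries 8 and 9.

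**Figure D3:**
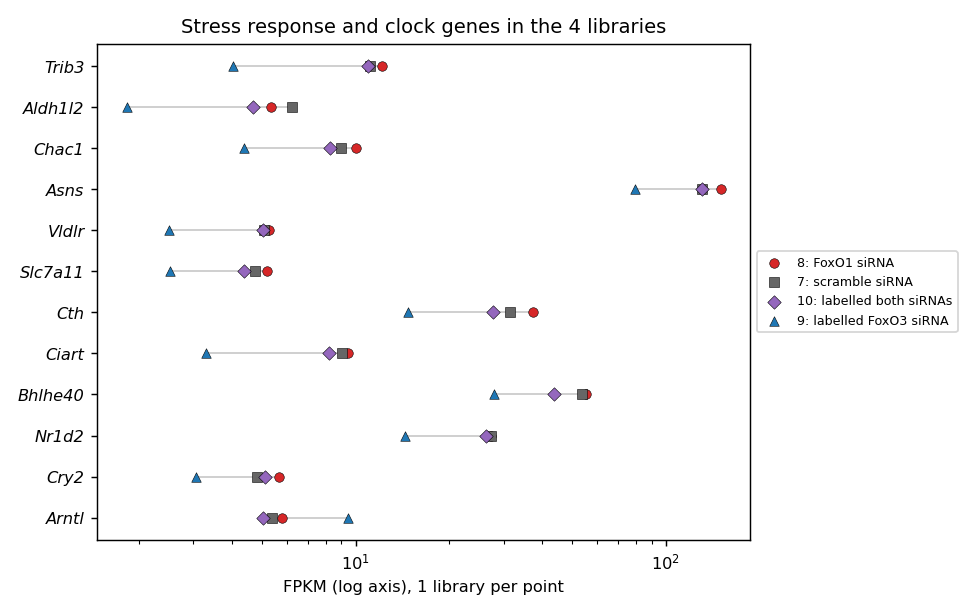
FPKM (log x axis) of 6 stress response genes (Trib3 to Slc7a11), Cth and 5 clock genes (Ciart to Arntl) in the 4 siRNA libraries given H2O2 and Wnt3a, 1 point for each library. Library 9 is the leftmost point for all but Arntl, where it is the rightmost at 9.44 FPKM, and the other libraries lie closer to one another than to it.

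Promoters of 3 of these genes are shown because the core of the amino acid response element, TGATGNAA, was in 7 of 13 lower stress response genes (53.8%) and in 1 of the 14 others measured. It was in 3.91% of all promoters and 2.22% of those of measured genes, searched on both strands in the same window. Capitals mark the matches in Asns at chr6:7693210-7693339 (minus strand), Slc7a11 at chr3:50443614-50443743 (minus strand) and Chac1 at chr2:119350992-119351241 (plus strand).
Asns: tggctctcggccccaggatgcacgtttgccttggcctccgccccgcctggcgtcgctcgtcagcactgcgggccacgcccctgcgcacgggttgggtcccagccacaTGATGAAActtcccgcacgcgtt
Slc7a11: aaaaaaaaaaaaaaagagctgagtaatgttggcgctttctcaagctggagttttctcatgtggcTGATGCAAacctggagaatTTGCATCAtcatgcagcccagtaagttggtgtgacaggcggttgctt
Chac1: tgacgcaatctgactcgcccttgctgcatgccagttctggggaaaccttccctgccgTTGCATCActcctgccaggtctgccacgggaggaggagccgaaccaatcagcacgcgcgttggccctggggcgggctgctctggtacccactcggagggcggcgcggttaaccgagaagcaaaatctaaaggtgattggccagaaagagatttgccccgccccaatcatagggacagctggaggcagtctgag
The match in Asns begins 23 bases before the start, and Slc7a11 holds one on each strand.

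Clock genes formed a smaller group. Of 21 listed, 18 were measured, 5 (27.8%) were lower by 0.58 or more, against 2.35% of all measured genes, and 1 (5.56%) was higher, against 2.06%, with a median of -0.27. Ciart, a repressor of CLOCK and BMAL1, was at 9.42 FPKM in library 8, 3.3 in library 9, 9.07 in library 7 and 8.19 in library 10 (log2 ratio -1.28). Bhlhe40, which competes with them at E-boxes, was at 55.2 FPKM in library 8, 28 in library 9, 53.7 in library 7 and 43.6 in library 10 (-0.95), and the nuclear receptor gene Nr1d2 was at 27.4 FPKM in library 8, 14.4 in library 9, 27.4 in library 7 and 26.4 in library 10 (-0.88). The repressors Cry2 (-0.72) and Per2 (-0.58) were the other lower members, and 4 in place of 5 were lower under each of the 3 other scalings. Arntl, which codes for the activator BMAL1, was the higher one, at 5.78 FPKM in library 8, 9.44 in library 9, 5.36 in library 7 and 5.02 in library 10 (0.62). The repressor genes Cry1 (0.08), Bhlhe41 (0.07) and Nfil3 (0.04) had ratios near 0, and the activator genes Tef (-0.32) and Dbp (-0.21) had ratios below 0. Clock, the partner of Arntl, was at 12.2 and 12.7 FPKM in libraries 8 and 9. The E-box CACGTG, which reads the same on both strands, was in 5 of 15 measured clock promoters and in 10.3% of those of measured genes. Among clock genes lower by 0.58 it was in 1 of 3 with a promoter, that of Ciart. Known FoxO targets held it in 7 of 28 (25%). The E-box occurs 3 times in the promoter of Ciart, at chr3:95882229-95882358 (minus strand), with capitals at each.
Ciart: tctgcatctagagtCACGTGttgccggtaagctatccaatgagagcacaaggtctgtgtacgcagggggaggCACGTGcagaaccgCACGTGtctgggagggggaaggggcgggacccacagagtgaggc
No source used here gives the hour at which the cells were collected.

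On the higher side, retinoid and alcohol metabolism held several of the named genes. Adh7, an alcohol dehydrogenase that also oxidizes retinol, was at 145 FPKM in library 9 against 51.6 in library 8, with 78.2 in library 7 and 118 in library 10 (log2 ratio 1.47). Aldh1a1, which makes retinoic acid from retinal, was at 84.7 FPKM in library 9 against 34.2 in library 8, with 25.7 in library 7 and 43.3 in library 10 (1.28), and its neighbour Aldh1a7, 49488 bases away on chromosome 19, was at 61.8 FPKM in library 9 against 26.3 in library 8, with 20.5 in library 7 and 33.2 in library 10 (1.20). The 2 are close copies, so reads may have been shared. Dhrs3, which turns retinal back to retinol, lay the other way, at 20.3 FPKM in library 9 against 32.6 in library 8, with 47.8 in library 7 and 30.5 in library 10 (-0.66). The retinoid list does not hold Adh7. Of its 15 measured genes, the 2 higher by 0.58 or more were Aldh1a1 and Aldh1a7 (13.3%, against 2.06% of all measured genes). Dhrs3 was the only lower one (6.67%, against 2.35%), and the list's median was 0.01.

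The highest ratio of a named gene was that of Mia3, which exports large cargo such as collagen from the endoplasmic reticulum, at 24.6 FPKM in library 9 against 5.98 in library 8, with 6.83 in library 7 and 4.64 in library 10 (log2 ratio 1.87). Library 9 alone was high. Cd55, a brake on complement at the cell surface, was at 5.12 FPKM in library 9 against 1.17 in library 8, with 0.945 in library 7 and 2.25 in library 10 (1.5), and the complement protease gene C1s1 was at 5.2 FPKM in library 9 against 1.33 in library 8, with 2.51 in library 7 and 1.55 in library 10 (1.41), with 18.4% of its exonic bases opposite a predicted gene. Saa3, an acute phase gene, was at 12.8 FPKM in library 9 against 4.69 in library 8, with 4.4 in library 7 and 4.44 in library 10 (1.27). For Saa3 too the other three libraries lay together. Xdh, which codes for xanthine dehydrogenase, was at 17.5 FPKM in library 9 against 7.76 in library 8, with 10.0 in library 7 and 14.4 in library 10 (1.08), and the water channel gene Aqp1, a proximal tubule marker, was at 37.3 FPKM in library 9 against 18.2 in library 8, with 14.3 in library 7 and 23.5 in library 10 (1.00). For Cd55, Xdh and Aqp1 the library labelled with both siRNAs ranked second. Trav13-2 (5.29 and 13.1 FPKM in libraries 8 and 9), Olfm1 (4.91 and 12 FPKM), Cpz (2.68 and 7.07 FPKM), Abi3bp (22.4 and 48.5 FPKM) and the carboxylesterase gene Ces2e (12.1 and 25.6 FPKM) complete the 15 highest with Foxo1. Among the 15 lowest, Asb5, a ubiquitin ligase adaptor gene, was at 9.47 and 2.98 FPKM (-1.39).

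**Figure D4:**
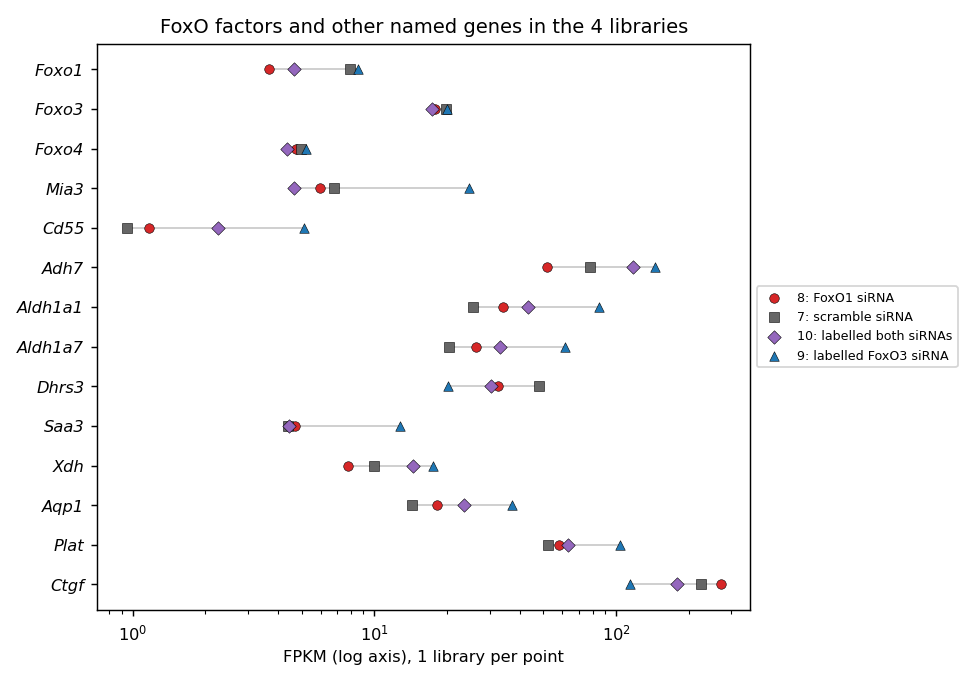
FPKM (log x axis) of 3 FoxO genes and 11 other named genes in the 4 siRNA libraries given H2O2 and Wnt3a, 1 point for each library. Foxo1 is low in libraries 8 and 10 (3.68 and 4.67 FPKM), Foxo3 is close in all 4 (17.4 to 19.9 FPKM), and Aldh1a1, Aldh1a7 and Saa3 are highest in library 9.

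Genes of the pericellular matrix and its proteolysis also differed in both directions. Plat, the tissue plasminogen activator gene, was at 58.3 FPKM in library 8, 104 in library 9, 52.3 in library 7 and 63.3 in library 10 (log2 ratio 0.82). The urokinase gene Plau was lower (-0.74), and the gelatinase gene Mmp9 was at 6.96 FPKM in library 8, 2.59 in library 9, 5.4 in library 7 and 3.45 in library 10 (-1.15). In all, 4 of 24 measured genes of this list were lower (16.7%, against 2.35% of all measured genes). The 2 higher ones (8.33%, against 2.06%) were Plat and Postn (0.72). Ctgf, a matricellular target of TGF-beta and YAP, was at 271 FPKM in library 8, 115 in library 9, 225 in library 7 and 179 in library 10 (-1.24), with 23.2% of its exonic bases opposite a predicted gene. The YAP target list as a whole was centred near 0 (-0.00), with 2 of 22 lower (9.09%, against 2.35%).

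The basement membrane genes Col4a3 (8.16 FPKM in library 8, 3.41 in library 9, 9.2 in library 7 and 5.56 in library 10, log2 ratio -1.06) and Col4a4 (-0.73) were both lower. They lie head to head 72 bases apart on chromosome 1. These 2 were the lower ones of 21 measured collagen, laminin and basement membrane genes (9.52%, against 2.35% of all measured genes). Col6a1 (0.78) was the 1 higher member (4.76%, against 2.06%). Havcr1, which codes for the tubular injury marker KIM-1, was at 17.4 FPKM in library 8, 8.19 in library 9, 11.7 in library 7 and 11.1 in library 10 (-1.0), and Vcam1, an adhesion gene of injured tubules, had a ratio of -0.84. They were the only ones of 22 measured injury genes past 0.58 (9.09% lower, against 2.35% of all measured genes). Id2, a BMP target, was higher (8.21 and 17.2 FPKM in libraries 8 and 9, 0.98).

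Few antioxidant genes passed the list size. Of 41 measured NRF2 and antioxidant genes, 33 had ratios above 0 (80.5%, against 47.6% of all measured genes). Past 0.58, 2 were higher (4.88%, against 2.06%), Nqo1 (8.08 FPKM in library 8, 13.8 in library 9, 8.34 in library 7 and 11.5 in library 10, log2 ratio 0.71) and Gsta3 (0.59), and 1 was lower (2.44%, against 2.35%), Slc7a11, with a median of 0.13. Hmox1, the heme oxygenase gene, was at 53.2 and 55.6 FPKM in libraries 8 and 9. The early response gene Btg2 was at 47.7 FPKM in library 8, 89.1 in library 9, 47.7 in library 7 and 52.7 in library 10 (0.89), and Mdm2, the p53 ubiquitin ligase gene, was at 196 and 304 FPKM (0.63). Hspb1, a small heat shock gene, was lower (-0.85). The sterol sensor gene Insig1 was lower (-0.65), and 23 of 28 measured cholesterol genes had ratios below 0 (82.1%, against 52.4% of all measured genes), with a median of -0.17.

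Genes known as FoxO targets gave no member past the list size. Of 42 listed, 31 were measured and 0 passed 0.58 in either direction, against 4.41% of all measured genes. The list had a median of 0.11 and 24 ratios above 0 (77.4%, against 47.6% of all measured genes). Cat, the catalase gene, was at 42.3 and 51.5 FPKM in libraries 8 and 9, and Sod2 was at 12.5 and 14.6 FPKM. The member farthest from 0, Gadd45a, was at 39.8 and 27.6 FPKM (-0.51), with 19.1% of its exonic bases opposite another gene. The forkhead motif GTAAACA, searched on both strands, was in 4 of 123 promoters of genes higher by 0.58 (3.25%), 7 of 145 of those lower (4.83%) and 2.52% of those of measured genes. Wnt feedback and target genes likewise gave 0 past 0.58 among 19 measured, with a median of 0.00. The lists of respiratory chain (34 measured), autophagy and lysosome (34), RNA interference (13), ABC and SLCO transporter (23) and housekeeping genes (16) also had 0 members past that size. With 4.41% of all measured genes past 0.58, a 0 in lists of these sizes, FoxO targets among them, is near that share.

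**Figure D5:**
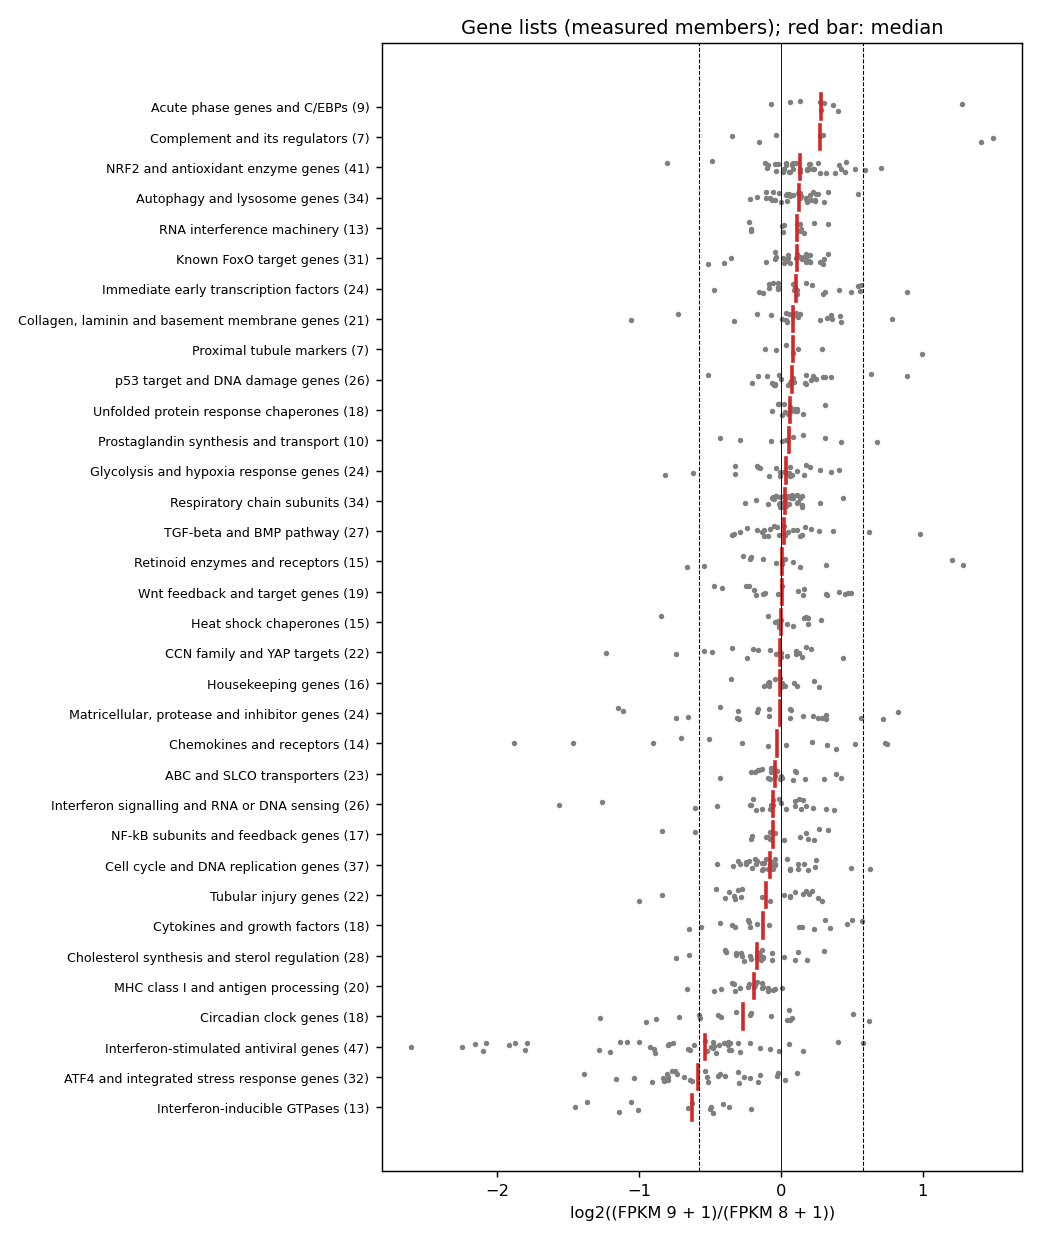
Log2 ratio of library 9 to library 8 (x axis) for each measured member of the gene lists (y axis, number measured in brackets), 1 grey point a gene, red bars at the medians and dashed lines at 0.58 and -0.58. The GTPase, stress response and antiviral lists lie lowest, with medians of -0.63, -0.58 and -0.53.

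The levels of libraries 7 and 10 were also set beside all 2-fold genes. Over the 16 higher genes that passed the naming filters, library 7 lay nearer to library 8 in 14 (87.5%) and library 10 in 10. Over the 46 lower genes, library 7 lay nearer to library 8 in 36 (78.3%) and library 10 in 19, with library 7 between the other libraries in 42 and library 10 in 41. Since these genes were chosen by the difference between libraries 8 and 9, a position between them is favoured by the choice.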

How the data were processed

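RNA of each group was sequenced as 1 library on an Illumina instrument with reads of 100 bases, per the labels. The authors deposited FPKM values in Cuffdiff tables of 2 libraries each, per the file headers. TopHat2, Cufflinks, Cuffdiff and build mm10 are named in the submitters' processing notes, and the sources used here give no settings, versions or annotation for them. The depth of each library in reads is unknown, so no counting interval is given.

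Libraries 8 and 9 come from separate tables, each holding library 7. The tables were joined by gene ID and each was divided by the median factor of its library 7 column to that of the table with library 10 (1.00334 over 11723 genes for library 8, 1.00116 over 11728 for library 9). Rows under 1 FPKM in both libraries (34461) and rows listed at 0 in 1 of them (94) were left out. Log2 ratios used a pseudocount of 1 FPKM, which understates differences of low genes. 

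Named were the FoxO genes, then the 15 highest and 15 lowest genes with 5 FPKM or more in a library, a single symbol, status OK and no symbol of a small RNA, predicted, histone or mitochondrial gene, and the members farthest from 0 in each of 41 lists. Some other members, such as receptors and activators, were named after their values were seen, and a few that the rule selects are not reported here. Members and lists were chosen with earlier results of these data known. Spreadsheet software had turned 27 symbols into dates, and these rows were kept by gene ID. Exon overlaps came from GENCODE M21, promoters from RefSeq GRCm38.p6. Alternatives were other pseudocounts, filters and scalings. Python 3.11.15, pandas 2.3.3, numpy 2.4.6 and matplotlib 3.10.9 were used, and the steps were tested on simulated data.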

Additional observations from a re-analysis of the deposited data

How the results depend on the processing

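No paired analysis was possible because each group has 1 library, and for the same reason no library could be left out. Counts past a fold depended on the pseudocount and on the filter. With a pseudocount of 0.1 FPKM, 145 genes were higher and 173 lower by 2-fold, and 464 and 476 by 0.58. With 5 FPKM these counts were 6 and 18, and 61 and 77. With a filter of 5 FPKM they were 28 and 39, and 116 and 139. Keeping rows listed at 0 gave 92 higher and 116 lower by 2-fold, and keeping only rows with 1 symbol, status OK and no left-out symbol gave 16 higher by 2-fold and 129 higher by 0.58. The share of 2-fold genes with library 7 nearer to library 8 was 100% (higher) and 88.9% (lower) with a pseudocount of 5 FPKM, 85.7% and 79.5% with the 5 FPKM filter, 87.5% and 78.3% over the filtered symbols, and 52.6% (lower) with rows at 0 kept. For library 10 and lower genes it was 54.8% at a size of 0.58. Lower antiviral genes numbered 12 with a pseudocount of 5 FPKM (list median -0.33) and 11 with the 5 FPKM filter. Lower GTPases numbered 4 with that pseudocount, their median was -0.83 with that filter, and 2 were lower without members that share exons or a locus, an alternative chosen after seeing the data. Lower clock genes numbered 3 with a pseudocount of 5 FPKM. These settings act by construction on low genes or on the number of genes kept. Under the alternatives run, 0 named ratios were reversed. A pseudocount or filter cannot reverse a ratio, and the scalings were small, so this count is no support for the directions. Of 164 named ratios, 34 moved by more than 0.178 with a pseudocount of 0.1 FPKM and 62 with 5 FPKM. Under the other filters and scalings 0 did, with 142 of the ratios present under the 5 FPKM filter. A filter leaves a ratio as it is. Named ratios were not compared at the size of 0.58 or without members that share exons or a locus. One library a group limits every value.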

Other observations

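Some rows could not enter the ratio because 1 library lists them at exactly 0. There were 94 such rows, 45 at 0 in library 8 and 49 at 0 in library 9, and 77 of them carry symbols of small RNAs, predicted genes or the other classes left out of naming. Txnrd1, the gene of cytosolic thioredoxin reductase, was listed at 126 FPKM in library 8 and at 0 in libraries 7, 9 and 10. Epha4, an ephrin receptor gene, was at 12.2 FPKM in library 8, 12.2 in library 7 and 10.6 in library 10, and was listed at 0 in library 9 with the status FAIL. Kmt2d, a histone methyltransferase gene, was at 5.63 FPKM in library 9 and listed at 0 in library 8, also with the status FAIL. These 3 were chosen after their values were seen. Whether such a 0 is an absent transcript or a level that Cuffdiff did not estimate cannot be told apart, so no fold is given.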
